A study of Caenorhabditis elegans with 8 samples.

Results

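The genes described here encode aminoacyl-tRNA synthetases, the enzymes that join each amino acid to its tRNA. They were chosen by symbol: a letter for the amino acid followed by ars-1 or ars-2, or the symbol eprs-1. This found 32 of the 17826 genes in the table, 20 with the suffix -1 and 12 with the suffix -2, and no row of the table used here carried the symbol eprs-1. The polyadenylated RNA of whole wild-type Caenorhabditis elegans (strain N2) was sequenced from 4 samples given 50 µM zidovudine, an antiretroviral thymidine analogue, and from 4 samples given the DMSO vehicle, each for 24 h starting at the last larval stage and harvested as day 1 adults. Per the labels' protocols, which are worded alike for both groups, about the same number of synchronized worms was used per sample and the plates also held 5-fluorouracil, a pyrimidine analogue, so both groups are taken to have had it. Whether libraries of 1 group stem from separate cultures is not stated in the labels, and the p-values therefore rest on the spread among these libraries alone.

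Each synthetase recognises 1 amino acid and its tRNAs, and the charged tRNAs feed the ribosome. Animal cells translate in the cytosol and inside mitochondria, and many amino acids have a synthetase gene for each compartment, both in the nuclear genome. The mitochondrial enzymes serve only the few proteins that mitochondrial DNA encodes. In mammals, uncharged tRNA activates the kinase GCN2, and the transcription factor ATF4 downstream of it raises the mRNAs of many cytosolic synthetases. The study's title names lower translation and ATF-4, and the question here is whether the synthetase mRNAs moved with the drug.

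The suffix marks the compartment only in part. By the usual naming -1 genes are cytosolic and -2 genes mitochondrial, and for many of them the table gives no compartment. Moreover, the alanyl pair is numbered the other way round: the table's own descriptions call aars-1 the mitochondrial and aars-2 the cytoplasmic alanine enzyme. cars-2, listed as a second cysteinyl gene, has no description in the table and is annotated as a pseudogene by Ensembl (build WBcel235). It lies on chromosome I on the opposite strand to cars-1, with 1107 nt between them, and reads can be shared between copies of a gene, so its values are uncertain. The other 31 genes are annotated as protein coding. For valine the rule took vars-1 but not glp-4, whose description is also that of a valine enzyme, and for phenylalanine it took fars-1 and fars-2 but not fars-3, the beta subunit that works with the alpha subunit in the cytosolic enzyme. glp-4 and fars-3 are described below as neighbours outside the rule.

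The libraries held 30449021 to 56930820 reads assigned to genes. DMSO 4 was run on a flow cell of its own, per the labels' descriptions, and listed 8.24% of genes with 0 reads, against 1.07% to 2.17% in the others. Flow cell and library cannot be told apart there, and values without DMSO 4 are values within 1 flow cell. Markers of intestine, body wall muscle, pharynx, neurons, germ line, sperm and adult hypodermis were all detected in every library, the fewest being 10 reads for a sperm marker. The summed level overlapped between the groups for 6 of the 7 marker lists. That of the pharynx did not: its 1 marker, the myosin gene myo-2, was at 42.8 to 51.8 CPM with zidovudine and 31.1 to 38.1 CPM with DMSO. Of all tested genes, 3.84% were higher with zidovudine without overlap between the groups, so 1 such gene does not by itself show a difference in the pharynx. The part of the pharynx in the values below was not tested. In whole worms a change in the number of cells of a type and a change in RNA per cell cannot be told apart. Of the 12382 genes tested, 7 were higher and 14 lower with zidovudine (limma adjusted p under 0.05).

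All 32 synthetase genes passed the filter of a mean of at least 0 log2 CPM (CPM is a gene's share of its library's reads, scaled up to a fixed total), the lowest being cars-2 with 429 to 778 reads per library and the highest kars-1, the lysine gene, with 14266 to 26633 reads. Compared per length, as RPKM (CPM divided by the exon length in kilobases), the -1 genes had a median level of 84.5 with zidovudine and 83.5 with DMSO, and the -2 genes one of 34.3 with zidovudine and 33.5 with DMSO. The level of kars-1 per length was the highest of all members, at 231 ± 16.5 RPKM with zidovudine and 222 ± 17.9 RPKM with DMSO (SD, n = 4 each). The threonine gene tars-1 was next at 158 ± 12.7 RPKM with zidovudine and 159 ± 9.38 RPKM with DMSO, and the aspartate gene dars-1 after it at 151 ± 12 RPKM with zidovudine and 145 ± 15.8 RPKM with DMSO. tars-1 was higher per length than dars-1 in most but not all libraries, and the difference between these genes was not tested. In mammals the lysine enzyme of both compartments comes from a single gene.

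The lowest level per length of a protein-coding member was that of the second aspartate gene, dars-2, at 18.3 ± 1.45 RPKM with zidovudine and 16.9 ± 0.69 RPKM with DMSO. aars-1 was close to it, at 20.6 ± 1.51 RPKM with zidovudine and 21.0 ± 2.02 RPKM with DMSO, and so lay lowest of the -1 genes. aars-2 was the highest of the -2 genes, at 104 ± 8.10 RPKM with zidovudine and 102 ± 5.02 RPKM with DMSO. With aars-1 and aars-2 placed by their described compartment, the mean level over the 8 libraries ran from 30.5 RPKM (vars-1) to 227 RPKM (kars-1) in the mostly cytosolic class and from 7.98 RPKM (cars-2) to 64.2 RPKM (fars-2) in the mostly mitochondrial class. The ranges of the classes overlapped through 3 low -1 genes: vars-1, the tyrosine gene yars-1 at 35.3 RPKM and the tryptophan gene wars-1 at 57.6 RPKM. The table describes only wars-1 of these 3 as cytosolic and gives no compartment for vars-1 or yars-1, so 2 of the 3 are placed by their suffix alone. These levels are a description of the samples, with no test.

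**Figure D1:**
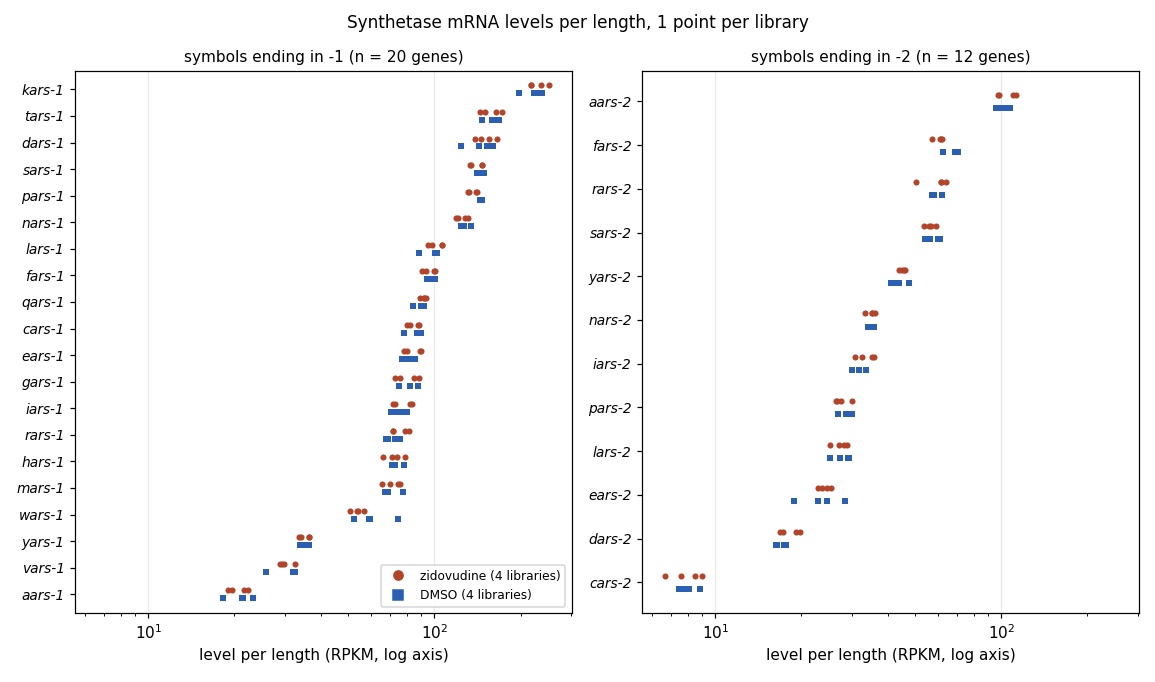
Level per length (RPKM, log axis) of each synthetase gene in each library, zidovudine above DMSO in every row, with the -1 genes on the left and the -2 genes on the right. The groups overlap in all rows but those of fars-2 and pars-1, and aars-1 and aars-2 sit at the opposite end of their suffix class, at 20.8 and 103 RPKM over all 8 libraries.

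For 12 amino acids both a -1 and a -2 gene were listed, and 8 amino acids had a -1 gene only under the rule. Within a pair the -2 gene was lower per length in 10 of 12 amino acids, by 1.25-fold (arginine, rars-2 against rars-1) to 10.7-fold (cysteine, where cars-2 is the pseudogene). Among pairs of protein-coding genes the widest gap of this kind was for aspartate, where dars-2 was 8.40-fold lower than dars-1, followed by proline, where pars-2 was 5.06-fold lower than pars-1. The -2 gene was higher for alanine, 4.95-fold, and for tyrosine, where yars-2 was 1.26-fold higher than yars-1. For valine, vars-1 was 2.60-fold lower than glp-4, at 30.1 ± 1.69 RPKM with zidovudine and 30.8 ± 3.29 RPKM with DMSO, while glp-4 was at 77.4 ± 2.92 RPKM with zidovudine and 80.8 ± 2.68 RPKM with DMSO. glp-4 is known for a temperature-sensitive allele that leaves worms without a germ line.

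Zidovudine and DMSO libraries overlapped in the balance within every pair. The log2 ratio of the -2 to the -1 gene differed between zidovudine and DMSO by -0.15 (phenylalanine) to 0.077 (proline), with 7 of the 12 differences above 0 and 5 below, and a median of 0.020. In 0 of 12 pairs were the 4 zidovudine libraries all above or all below the 4 DMSO libraries. Of all tested genes, taken singly, 6.65% had groups without overlap, so a count of 0 in 12 pairs says little about the pairs. For alanine the log2 ratio was 2.34 ± 0.041 with zidovudine and 2.28 ± 0.13 with DMSO, for aspartate -3.05 ± 0.062 with zidovudine and -3.09 ± 0.12 with DMSO, and for phenylalanine -0.67 ± 0.11 with zidovudine and -0.52 ± 0.11 with DMSO (SD, n = 4 each). No p is given for these ratios, since the members were chosen with results of these data known.

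**Figure D2:**
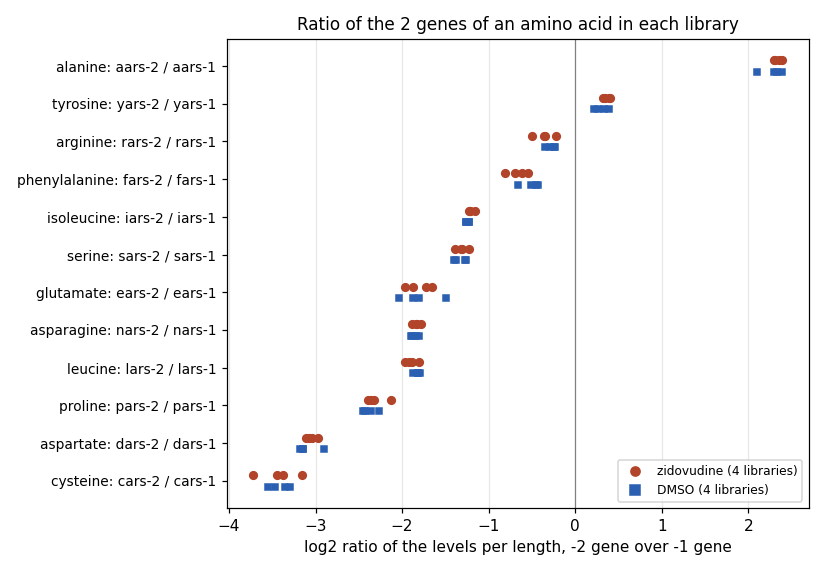
Log2 ratio of the level per length of the -2 gene over that of the -1 gene in each library, 1 row per amino acid, zidovudine above DMSO. The ratio runs from about 2.3 for alanine to about -3.4 for cysteine, and in each of the 12 rows the 4 zidovudine libraries overlap the 4 DMSO libraries.

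No synthetase mRNA passed the test. Of the 32 genes, 0 had a limma adjusted p under 0.05, where 0.17% of all tested genes did (0.0565% higher and 0.113% lower with zidovudine), and 1, fars-2, had an unadjusted p under 0.05, where 11.8% of all tested genes did. With limma-voom on the recovered reads these counts were also 0 and 1. The log2 fold changes, zidovudine minus DMSO, ran from -0.18 (wars-1) to 0.11 (dars-2), 14 of them positive and 18 negative. The median was -0.014 for the -1 genes, -0.0015 for the -2 genes and 0.0082 for all tested genes. The split of signs depended on the processing. With each library's trend on exon length removed, the medians were -0.055 for the -1 and -0.022 for the -2 genes. Every member that changed sign in that setting went from positive to negative. The median size of the fold change, without its sign, was 0.035 for the members, 0.078 for the 6670 tested genes within the members' range of levels and 0.11 for all tested genes. The 6670 genes share the members' range but not their median level, which was 6.05 log2 CPM against 7.33 for the members. This is therefore not a comparison at equal levels.

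The 95% intervals of the 32 fold changes, each taken by itself, lay between -0.37 and 0.27 on the log2 scale, or 0.771-fold and 1.21-fold. For the -1 genes the outermost bounds were 0.771-fold (wars-1) and 1.18-fold (dars-1), and for the -2 genes 0.812-fold (fars-2) and 1.21-fold (dars-2). A p above the threshold does not show equal levels, and the intervals leave room for shifts within these bounds. Together the -1 genes took 0.456% ± 0.0170 of all reads with zidovudine and 0.458% ± 0.0189 with DMSO, and the -2 genes 0.104% ± 0.00323 with zidovudine and 0.105% ± 0.00374 with DMSO (SD, n = 4 each).

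**Figure D3:**
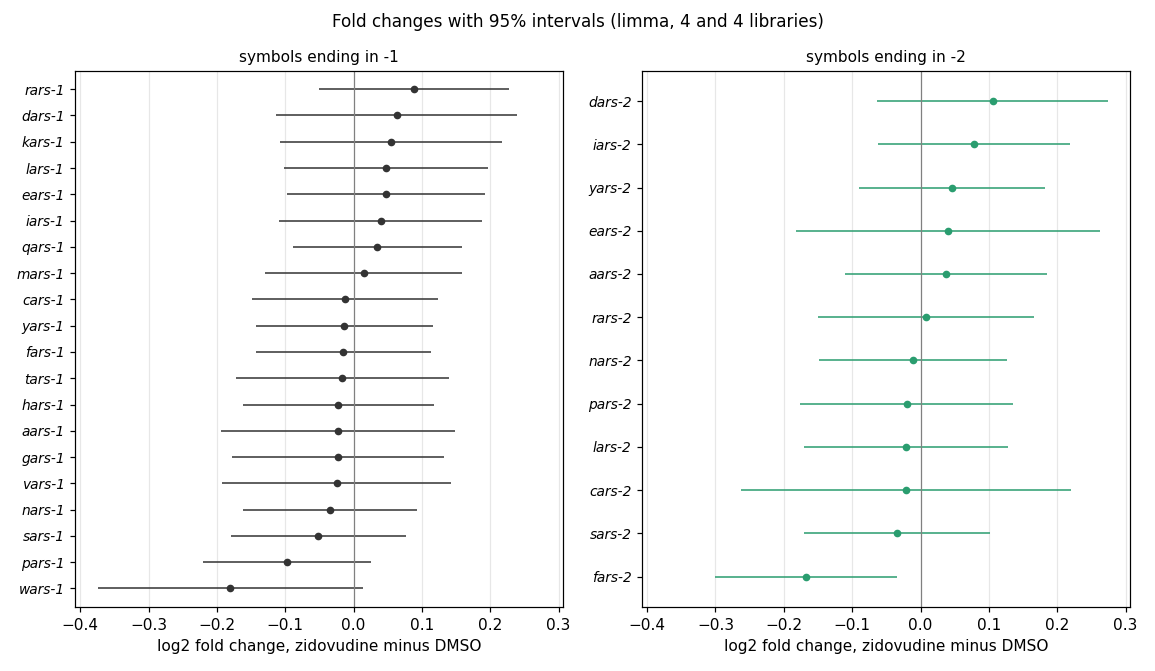
Log2 fold change of each synthetase gene (zidovudine minus DMSO, points) with its 95% interval (bars), the -1 genes on the left and the -2 genes on the right. Every interval but that of fars-2 includes 0, and no bound lies outside -0.37 to 0.27.

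In 2 of the 32 genes the groups did not overlap, both lower with zidovudine, where the groups of 6.65% of all tested genes did not overlap (3.84% higher and 2.82% lower with zidovudine). The first was fars-2 (WBGene00013361; chromosome V, 19897977 to 19907434 in WBcel235, protein coding), a phenylalanine enzyme; the suffix is that of the mostly mitochondrial class. fars-2 was at 6.60, 6.58, 6.48 and 6.59 log2 CPM in zidovudine libraries 1 to 4, against 6.75, 6.61, 6.78 and 6.78 log2 CPM in DMSO libraries 1 to 4. The highest zidovudine library and the lowest DMSO library, DMSO 2, were nearly equal. The log2 fold change of fars-2 was -0.17 (SE 0.062, 95% interval -0.30 to -0.035; limma unadjusted p = 0.0166, adjusted p = 0.303), a level of 0.89 times that with DMSO, from 3024 to 5704 reads per library. It ranged from -0.21 to -0.14 over 19 other settings and was -0.15 without DMSO 4.

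The other genes for phenylalanine lay close to 0. fars-1, described in the table as a phenylalanine enzyme without a compartment, was at 7.60 ± 0.074 log2 CPM with zidovudine and 7.62 ± 0.048 log2 CPM with DMSO, a log2 fold change of -0.015 (95% interval -0.14 to 0.11). fars-3 was at 7.13 ± 0.085 log2 CPM with zidovudine and 7.13 ± 0.067 log2 CPM with DMSO, a log2 fold change of 0.00034 (95% interval -0.13 to 0.13). The difference between fars-2 and either of these was not tested.

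The other gene without overlap was pars-1 (WBGene00004189; chromosome III, 7239027 to 7241277, protein coding), a proline enzyme. In mammals proline and glutamate are charged by joined domains of 1 protein, EPRS1; the worm table lists separate genes, pars-1 and ears-1. pars-1 was at 8.0, 7.98, 8.08 and 8.09 log2 CPM in zidovudine libraries 1 to 4, against 8.12, 8.15, 8.13 and 8.15 log2 CPM in DMSO libraries 1 to 4. The SD was 0.055 over the zidovudine libraries and 0.012 over the DMSO libraries. The log2 fold change of pars-1 was -0.097 (SE 0.058, 95% interval -0.22 to 0.025; limma adjusted p = 0.530). ears-1 was at 8.23 ± 0.10 log2 CPM with zidovudine and 8.18 ± 0.069 log2 CPM with DMSO, and pars-2, the second proline gene, at 5.43 ± 0.084 log2 CPM with zidovudine and 5.45 ± 0.080 log2 CPM with DMSO.

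wars-1 (WBGene00006945; chromosome V, 18852704 to 18859221), which the table describes as the cytosolic tryptophan enzyme, had the lowest fold change. It was at 6.68, 6.84, 6.76 and 6.76 log2 CPM in zidovudine libraries 1 to 4, against 6.72, 6.89, 6.91 and 7.24 log2 CPM in DMSO libraries 1 to 4. The groups overlapped, and DMSO 4 stood above the other 7 libraries. The log2 fold change of wars-1 was -0.18 (SE 0.090; limma adjusted p = 0.454), and without DMSO 4 it was -0.082 (limma adjusted p = 0.804). Its exons share 26 nt with nhr-230 on the other strand.

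**Figure D4:**
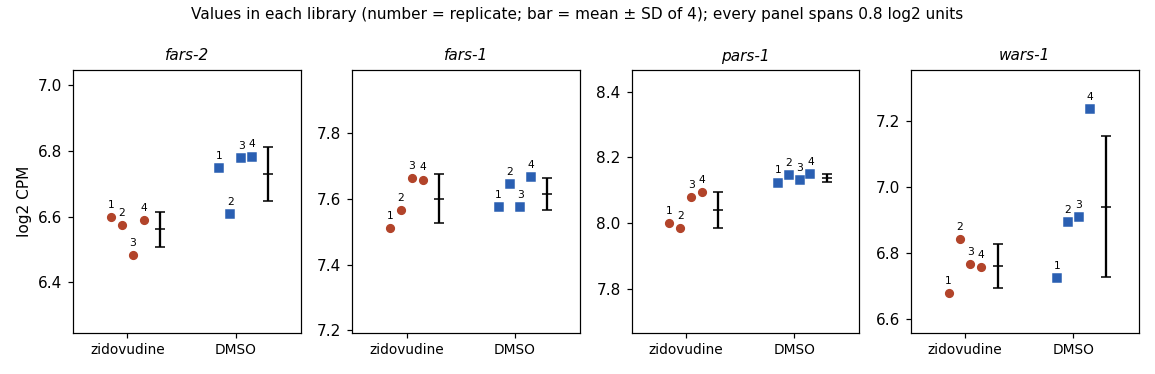
Level (log2 CPM) of fars-2, fars-1, pars-1 and wars-1 in each library, zidovudine on the left and DMSO on the right, with replicate numbers and the mean ± SD of 4 libraries. fars-2 and pars-1 show no overlap between groups, fars-1 overlaps throughout, and the DMSO 4 library sets wars-1 apart at 7.24 log2 CPM.

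Of the other -1 genes, the arginine gene rars-1 had the highest fold change. rars-1 was at 7.52, 7.52, 7.70 and 7.65 log2 CPM in zidovudine libraries 1 to 4, against 7.54, 7.60, 7.46 and 7.44 log2 CPM in DMSO libraries 1 to 4, a log2 fold change of 0.089 (SE 0.065; limma adjusted p = 0.609). Zidovudine 3 and 4 lay above all DMSO libraries and zidovudine 1 and 2 among them, and without zidovudine 3 the fold change was 0.053. The serine gene sars-1 was at 7.79, 7.78, 7.91 and 7.91 log2 CPM in zidovudine libraries 1 to 4, against 7.86, 7.90, 7.94 and 7.91 log2 CPM in DMSO libraries 1 to 4, a log2 fold change of -0.052 (SE 0.060; limma adjusted p = 0.741). kars-1 was at 8.82, 8.81, 8.94 and 9.03 log2 CPM in zidovudine libraries 1 to 4, against 8.85, 8.95, 8.91 and 8.68 log2 CPM in DMSO libraries 1 to 4, a log2 fold change of 0.054 (SE 0.076; limma adjusted p = 0.791). In all 3 genes the groups overlapped, and single libraries moved the values: sars-1 was at -0.029 without zidovudine 2 and kars-1 at -0.0020 without DMSO 4. The other 15 genes of this suffix, for alanine, cysteine, aspartate, glutamate, phenylalanine, glycine, histidine, isoleucine, leucine, methionine, asparagine, glutamine, threonine, valine and tyrosine, had log2 fold changes from -0.034 (nars-1) to 0.063 (dars-1).

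Of the other -2 genes, dars-2, iars-2 and yars-2 had the smallest p after fars-2. dars-2 was at 5.00, 5.03, 5.19 and 5.23 log2 CPM in zidovudine libraries 1 to 4, against 4.94, 5.07, 5.04 and 4.97 log2 CPM in DMSO libraries 1 to 4, a log2 fold change of 0.11 (SE 0.079; limma adjusted p = 0.613). The isoleucine gene iars-2 was at 6.87, 6.79, 7.01 and 6.99 log2 CPM in zidovudine libraries 1 to 4, against 6.83, 6.92, 6.84 and 6.76 log2 CPM in DMSO libraries 1 to 4, a log2 fold change of 0.079 (SE 0.066; limma adjusted p = 0.647). As for rars-1, zidovudine 3 and 4 were the highest libraries of both genes; dars-2 was at 0.066 without zidovudine 4 and iars-2 at 0.048 without zidovudine 3. yars-2 was at 6.15, 6.11, 6.18 and 6.16 log2 CPM in zidovudine libraries 1 to 4, against 6.01, 6.22, 6.11 and 6.07 log2 CPM in DMSO libraries 1 to 4, a log2 fold change of 0.046 (SE 0.064; limma adjusted p = 0.791). DMSO 1 was its lowest and DMSO 2 its highest library, and yars-2 was at 0.016 without DMSO 1 and 0.086 without DMSO 2.

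The alanyl pair, whose compartments the table gives, also overlapped. The cytoplasmic aars-2 was at 8.24, 8.26, 8.42 and 8.46 log2 CPM in zidovudine libraries 1 to 4, against 8.27, 8.39, 8.34 and 8.23 log2 CPM in DMSO libraries 1 to 4, a log2 fold change of 0.037 (95% interval -0.11 to 0.19). The mitochondrial aars-1 was at 5.88, 5.83, 6.05 and 6.01 log2 CPM in zidovudine libraries 1 to 4, against 6.11, 6.0, 5.98 and 5.77 log2 CPM in DMSO libraries 1 to 4, a log2 fold change of -0.023 (95% interval -0.19 to 0.15). With this pair exchanged between the classes, the median fold change was -0.013 for the mostly cytosolic and -0.016 for the mostly mitochondrial class. The pseudogene cars-2 was at 3.73, 3.98, 3.89 and 3.55 log2 CPM in zidovudine libraries 1 to 4, against 3.75, 3.70, 3.83 and 3.95 log2 CPM in DMSO libraries 1 to 4, and without it the median of the -2 genes was 0.0081. The remaining -2 genes, for glutamate, leucine, asparagine, proline, arginine and serine, had log2 fold changes from -0.035 (sars-2) to 0.041 (ears-2).

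Within a group, many synthetase genes lay high or low in the same libraries. In zidovudine 1 all 20 of the -1 genes lay below their own mean over the 8 libraries, and in zidovudine 2 19 of 20 did, with qars-1, the glutamine gene, as the exception. In zidovudine 3 and in zidovudine 4 18 of 20 lay above it, the exceptions being wars-1 in both, pars-1 in zidovudine 3 and vars-1 in zidovudine 4. In DMSO 2 all 20 lay above their mean and in DMSO 4 12 of 20 lay below it. The median deviation of the -1 genes ran from -0.075 to 0.068 log2 CPM across the zidovudine libraries and from -0.082 to 0.054 across the DMSO libraries.

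The -2 genes lay high and low in many of the same libraries. Their median deviation ran from -0.054 to 0.062 log2 CPM across the zidovudine libraries and from -0.055 to 0.047 across the DMSO libraries. 9 of 12 lay below their mean in zidovudine 1 and in zidovudine 2, and 10 of 12 above it in zidovudine 3. fars-2 was on the other side of most -2 genes in zidovudine 3 and 4 and in DMSO 1, 2 and 4. The members' exons are long, with a median of 2437 nt for the -1 genes and 1658.5 nt for the -2 genes against 1438 nt for all tested genes, and mRNAs of different length lay high in different libraries. The median deviation of the 678 tested genes under 500 nt ran from -0.63 to 0.47 log2 CPM across the zidovudine libraries and from -0.027 to 0.50 across the DMSO libraries. The median deviation of the 4269 tested genes with 1500 to 3000 nt of exon was 0.015, -0.039, 0.048 and 0.060 log2 CPM in zidovudine 1 to 4 and -0.021, 0.0077, 0.0084 and -0.069 log2 CPM in DMSO 1 to 4. These medians were of the same sign as those of the -1 genes in 7 of the 8 libraries, zidovudine 1 being the exception. The part of mRNA length in the members' values was not tested beyond the removal of each library's trend on exon length, which gave medians of -0.055 for the -1 and -0.022 for the -2 genes with 0 members past the threshold.

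**Figure D5:**
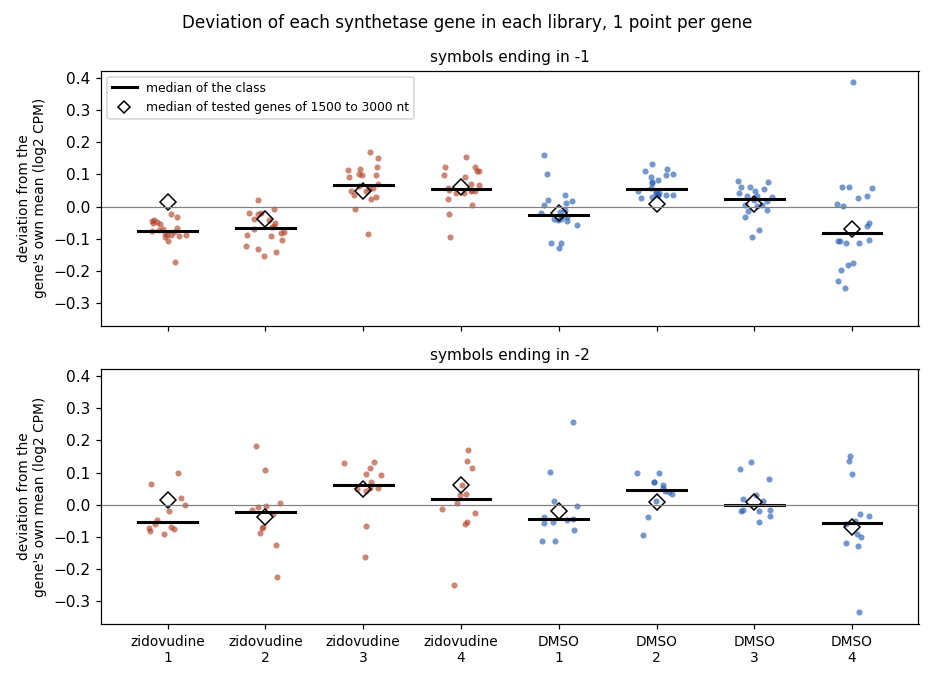
Deviation of each synthetase gene from its own mean over the 8 libraries (log2 CPM), 1 point per gene, zidovudine libraries on the left and DMSO libraries on the right, with the -1 genes above and the -2 genes below. Bars are class medians and open diamonds the median of all tested genes with 1500 to 3000 nt of exon; all -1 genes lie below 0 in zidovudine 1, all but qars-1 in zidovudine 2, and 18 of 20 lie above 0 in zidovudine 3 and in zidovudine 4.

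The spread between libraries differed among the members. The SD within groups, pooled over both, had a median of 0.090 log2 CPM for the -1 genes and 0.089 for the -2 genes, beside 0.11 for the tested genes within the same range of levels. The median level of those genes was lower than that of the members, 6.05 against 7.33 log2 CPM. The steadiest members were pars-1 (0.040), nars-2 (0.041) and qars-1 (0.048), and the least steady were ears-2 (0.18), wars-1 (0.16) and cars-2 (0.16). For ears-2, the second glutamate gene, DMSO 1 at 5.48 and DMSO 4 at 4.89 log2 CPM enclosed all zidovudine libraries, which lay between 5.17 and 5.32.

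Of the 32 genes, 10 lie on chromosome I, 4 on II, 6 on III, 8 on IV, 4 on V and 0 on X. Of all tested genes, 17.1% lie on I, 17.6% on II, 16.4% on III, 16.8% on IV, 18.2% on V and 13.7% on X; no test was made of these shares. The exons of 12 members share 4 to 138 nt with a protein-coding gene on the other strand and those of 2 members share bases with a gene on the same strand; the members' exon lengths are 1376 to 3741 nt. The sources used here do not state whether the strand was used in counting, so reads in those stretches cannot be assigned.

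Genes that act with the synthetases were taken from a list of 29 symbols, of which 25 were listed in the table. It holds glp-4, fars-3 and the elongation factors that carry charged tRNA to the ribosome in the cytosol and in mitochondria. It also holds enzymes of tRNA maturation, RNA polymerase III subunits, gcn-1 and gcn-2 of the response to uncharged tRNA, and ATF-4. Of the 25, 0 had a limma adjusted p under 0.05, and 1 (4% of the list, against 11.8% of all tested genes) had an unadjusted p under 0.05. The fold changes were positive for 11 genes and negative for 14, and their median was -0.013. glp-4 was at 8.11 ± 0.055 log2 CPM with zidovudine and 8.17 ± 0.048 log2 CPM with DMSO, a log2 fold change of -0.063 (SE 0.060; limma adjusted p = 0.685) and -0.038 without zidovudine 1.

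The smallest p of this list was that of mafr-1, which encodes the repressor of RNA polymerase III, the polymerase that makes tRNA. mafr-1 was at 5.74, 5.76, 5.90 and 5.69 log2 CPM in zidovudine libraries 1 to 4, against 5.66, 5.68, 5.66 and 5.35 log2 CPM in DMSO libraries 1 to 4. The groups did not overlap, though zidovudine 4 and DMSO 2 were nearly equal and DMSO 4 was the lowest. No other gene of the 25 was without overlap. That is 4% of the list, against 6.65% of all tested genes (3.84% higher with zidovudine). With zidovudine mafr-1 differed from DMSO by 0.18 on the log2 scale (SE 0.083; limma adjusted p = 0.413), and without DMSO 4 it was 0.10.

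gcn-2 was at 5.47, 5.70, 5.80 and 5.55 log2 CPM in zidovudine libraries 1 to 4, against 5.64, 5.55, 5.92 and 6.36 log2 CPM in DMSO libraries 1 to 4, a log2 fold change of -0.24 (SE 0.17; limma adjusted p = 0.620). Without DMSO 4, its highest library, the value was -0.073. tut-1, a gene for the thiolation of tRNA, was at 5.66, 5.75, 5.74 and 5.85 log2 CPM in zidovudine libraries 1 to 4, against 5.81, 5.87, 5.82 and 5.83 log2 CPM in DMSO libraries 1 to 4, a difference of -0.084 (SE 0.065; limma adjusted p = 0.623) and of -0.055 without zidovudine 1. Zidovudine 1 to 3 lay below all DMSO libraries and zidovudine 4 among them. The ATF-4 mRNA (symbol atf-5 in the table) was at 5.59, 5.53, 5.08 and 5.42 log2 CPM in zidovudine libraries 1 to 4, against 5.41, 5.59, 5.41 and 5.69 log2 CPM in DMSO libraries 1 to 4. Zidovudine 3 was its lowest library. The fold change of atf-5 was -0.12 (SE 0.11, limma adjusted p = 0.671), and -0.010 without zidovudine 3. These are mRNA values, and the ATF-4 protein and its activity were not measured here.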

How the data were processed

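RNA was captured on oligo-dT beads and sequenced on a NovaSeq instrument after directional library preparation, per the labels' protocols. The authors deposited log2 CPM values for 17826 genes and 8 libraries; the file headers say CPM, but the columns hold negative values. Tools named without roles in the submitters' processing notes are limma 3.40.6, edgeR 3.26.8, HTSeq 0.11.0, HISAT2 2.1.0, Trimmomatic 0.32 and FastQC; the sources used here state no genome build or annotation. Back on the linear scale, the values above the common floor came out as whole reads (100% within 0.05 reads) over a prior of 1.45 to 2.81 reads per library; that prior pulls fold changes of low genes toward 0.

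The test was limma-trend (limma 3.58.1, R 4.3.3; robust, two-sided, group as the only term) on the deposited log2 values of 12382 genes (mean 0 or more), Benjamini-Hochberg adjusted over all of them, threshold 0.05; the script was tested on simulated data. Differences are zidovudine minus DMSO. RPKM was computed from recovered reads, effective library sizes and union exon lengths (Ensembl, WBcel235, by gene ID). Reads per member (429 to 26633 per library) set the counting error.

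The members, the list of tRNA genes and the settings were chosen with earlier results of these data known. Values in every library were to be given for the 4 members of each suffix with the smallest p, members without overlap between groups, the alanyl genes, the highest and lowest level per length of each suffix, and, of the tRNA list, the 4 genes with the smallest p, atf-5 among them. Other genes and libraries singled out were chosen after their values were seen. Alternatives were quantile normalization, library totals as the only scaling, no or a stricter filter (1 log2 CPM), a prior of 0.5 reads, limma without trend, sample quality weights, the replicate block, removal of the trend on exon length, leaving out libraries, and, added after seeing the data, limma-voom on recovered reads.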

Additional observations from a re-analysis of the deposited data

Results flagged for a closer look

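In 4 of 64 groups of 4 libraries (32 genes in 2 groups) 1 library stood far from the other 3; chance gives about 1 in 20. The gap to the nearest library, as a share of the group's range, was 0.931 for vars-1 in DMSO, where DMSO 4 was at 6.33 log2 CPM and the others reached 6.66. It was 0.879 for lars-1, the leucine gene, in DMSO, where DMSO 4 was at 8.37 and the highest at 8.58. It was 0.838 for rars-2 in zidovudine, where zidovudine 2 was at 6.48 and the highest at 6.82. It was 0.832 for mars-1, the methionine gene, in DMSO, where DMSO 2 was at 7.86 and the lowest at 7.66.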

How the results depend on the processing

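In 19 settings besides the reported one, 0 of the 32 synthetase genes and 0 of the 25 listed tRNA genes passed the threshold, and the smallest adjusted p of a member ran from 0.194 (sample quality weights) to 0.684 (without zidovudine 3). The count of members with a limma unadjusted p under 0.05, 1 as reported, was 0 to 2 with 1 library left out. It was 2 with quantile normalization, with library totals as the only scaling, with the replicate block and with the exon length trend removed. With 1 library left out, the median fold change was -0.034 to 0.022 for the -1 genes and -0.014 to 0.034 for the -2 genes. With the exon length trend removed it was -0.055 for the -1 genes and -0.022 for the -2 genes. Over all tested genes, with 7 higher and 14 lower of 12382 as reported, the counts moved more. There were 7 lower with quantile normalization and 7 lower with library totals as the only scaling. A filter of 1 log2 CPM, which left 10886 genes in the test, gave 8 lower. With limma without trend there were 2 higher and 2 lower, and with sample quality weights 74 higher and 74 lower. Without DMSO 4 and zidovudine 2 together there were 49 higher and 107 lower. With any 1 library left out, 1 to 17 were higher and 3 to 28 lower. The cause was not tested. The planned edgeR quasi-likelihood test on recovered reads was not run; limma-voom on those reads, added after seeing the data, gave 8 higher and 13 lower.

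Of 608 values of members over these settings, 62 had the other sign, 42 of them with 1 library left out, in 22 genes; the 10 genes dars-2, fars-2, iars-2, nars-1, pars-1, rars-1, sars-1, sars-2, wars-1 and yars-2 kept 1 sign in all 19 settings. The members' log2 fold changes of other sign outside the single-library settings were these: with quantile normalization mars-1 was at -0.0051, nars-2 at 0.0021. With library totals as the only scaling rars-2 was at -0.00088. With sample quality weights cars-1 was at 0.0017, ears-2 at -0.0099, fars-1 at 0.0061, hars-1 at 0.0020, tars-1 at 0.0097. With the trend on exon length removed aars-2 was at -0.019, ears-1 at -0.016, iars-1 at -0.024, lars-1 at -0.019, mars-1 at -0.039, qars-1 at -0.0095, rars-2 at -0.023. With DMSO 4 and zidovudine 2 left out together cars-1 was at 0.019, ears-2 at -0.055, fars-1 at 0.014, hars-1 at 0.018, tars-1 at 0.042. fars-3, outside the rule and at 0.00034 as reported, was at -0.016, -0.0087, -0.010, -0.034 and -0.0054 in the same 5 settings in this order, and at -0.036 to 0.027 with 1 library left out. With 1 library left out, the members that changed sign there spanned -0.088 to 0.026 for aars-1, -0.0015 to 0.071 for aars-2, -0.052 to 0.012 for cars-1, -0.086 to 0.059 for cars-2, -0.012 to 0.11 for dars-1, -0.064 to 0.13 for ears-2, -0.036 to 0.014 for fars-1, -0.068 to 0.024 for gars-1, -0.064 to 0.021 for hars-1, -0.0020 to 0.089 for kars-1, -0.0023 to 0.080 for lars-1, -0.068 to 0.018 for lars-2, -0.013 to 0.061 for mars-1, -0.027 to 0.013 for nars-2, -0.060 to 0.013 for pars-2, -0.029 to 0.084 for rars-2, -0.060 to 0.025 for tars-1, -0.11 to 0.0049 for vars-1, -0.036 to 0.0081 for yars-1. Those of 1 sign spanned -0.21 to -0.14 for fars-2, -0.12 to -0.079 for pars-1, -0.25 to -0.082 for wars-1, -0.074 to -0.029 for sars-1, -0.067 to -0.0084 for sars-2, -0.057 to -0.0097 for nars-1, 0.053 to 0.12 for rars-1, 0.066 to 0.14 for dars-2, 0.048 to 0.12 for iars-2, 0.016 to 0.086 for yars-2, 0.017 to 0.083 for ears-1, 0.0052 to 0.076 for iars-1 and 0.0051 to 0.050 for qars-1.

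The replicate numbers shared by the groups were checked for pairing. The deviations of same-numbered libraries from their group means correlated at 0.067, -0.18, 0.14 and -0.32 for numbers 1 to 4. Zidovudine 2 correlated best with DMSO 4 (0.37), and genes under 500 nt lay high in both (median deviation 0.47 and 0.50 log2 CPM). Deviations from means of 4 libraries that also follow mRNA length cannot show whether same-numbered libraries were prepared together. With the replicate number as a block, 1 gene was higher and 8 lower over all tested genes, and 0 members passed.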
